A study of Mus musculus with 6 samples.

Results

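The genes described here encode the machinery of mitosis: the cyclins and kinases that start it, the kinesin motors and spindle proteins that move chromosomes, the kinetochore that ties chromosomes to microtubules, and the checkpoint and ubiquitin ligase that time the exit. The set was listed by gene name, with earlier results of these data in view, and held 60 genes. Each was read from probe sets that the array annotation gives to that gene alone, and where several exist the brightest of them, averaged across all 6 arrays, was taken. By this rule 57 of the 60 were measured, out of 17097 genes in the table. Ccnb1, Cdc25a and Nuf2 were not analysed here, since no probe set in the table used carried that gene alone.

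RNA came from the liver left 12 h after surgical removal of 70% of the organ (partial hepatectomy, PHx), in C57Bl/6 mice. The control group was 3 wildtype mice, and the other group 3 mice, labelled DeltaKlf6, in which Klf6, encoding a transcription factor with zinc fingers, is labelled as deleted in hepatocytes. Each array is 1 animal of the 6 per group in the wider study, and all 6 animals had the operation, so no liver without resection is in the comparison. The sources used here give neither the age of the mice nor the Cre line behind the knockout. Whole liver also contains cells in which a hepatocyte-specific deletion leaves Klf6 intact. Values are log2 expression, so that a difference of 1 is a factor of 2, and the medians over all probe sets of an array lay between 3.30 and 3.45. Detection was not assessed, and the mean over the 6 arrays was under the overall median of 3.36 for 22 of the 57 members, whose values may lie near background.

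In quiescent liver hepatocytes rarely divide, and mitotic genes are kept low. After PHx hepatocytes leave quiescence, pass through G1 over many hours and enter S phase, and the mitotic genes follow as a late wave. Many of these genes share a promoter design, a cell cycle homology region (CHR) with CCAAT boxes upstream, through which the DREAM complex represses them in quiescence and B-MYB and FOXM1 activate them in G2.

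Some libraries stood apart. In the library labelled DeltaKlf6 1 the 3 Klf6 probe sets were at 5.81, 5.88 and 7.03, each above every wildtype array (3.41 to 4.03, 3.73 to 4.44 and 4.43 to 5.20). In the libraries labelled DeltaKlf6 2 and 3 they were at 2.82, 4.12 and 4.61 and at 2.83, 3.74 and 3.15. DeltaKlf6 2 thus lay below the wildtype range on 1 of the 3 probe sets and within it on 2, and DeltaKlf6 3 below it on 2 and within it on 1. The DeltaKlf6 mean was higher on all 3, by 0.14 (SE 0.75), 0.52 (SE 0.53) and 0.02 (SE 0.85), so these values do not show lower Klf6 in the group. Klf6 went against the label in 1 library, whether these probe sets lie in the deleted part is not known here, and the directions that follow compare libraries by their labels. The upper quartile of all values was 5.08 in DeltaKlf6 3 and 5.50 to 5.63 in the other arrays. The limma array weight, lower for arrays that scatter more about the fit over all genes, was 0.378 in DeltaKlf6 3. It was 0.864 to 1.674 in the other arrays, with 0.992 in DeltaKlf6 2. DeltaKlf6 2 stood apart in the mitotic genes themselves, and results are therefore given with and without it. Without DeltaKlf6 2 its group rests on DeltaKlf6 1 and DeltaKlf6 3.

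The promoter letters of the members are shown first. Whether the shared design has a part in their levels here was not tested. RefSeq promoter windows (GRCm38.p6, 250 bases before to 50 after the start of a gene) were present for 51 of the 60 members, 57 windows in all because some genes have a second start, whose windows can overlap. The CHR was searched as TTTGAA and TTCGAA and the CCAAT box as CCAAT, each on both strands; the search letters do not contain each other. CHR letters were in 39 of 57 windows (68.4%), against 19.2% of all 32851 windows in the table. CCAAT letters were in 43 (75.4%), against 37.4%, and both were in 34 (59.6%), against 7.53%. Of the CHR matches in member windows 37 of 53 (69.8%) began within 50 bases of the start, against 25.2% of such matches in all windows. The stretches below run from 110 bases before to 20 after the start, with CHR and CCAAT letters (or their complements) in capitals. Psrc1, Ube2c, Cdk1, Top2a and Kif22 are shown because their levels were higher in DeltaKlf6 2 by about 1 or more, and Bub3 and Cdc25b because theirs were not.
Psrc1 (chr3:108383728-108383857, + strand): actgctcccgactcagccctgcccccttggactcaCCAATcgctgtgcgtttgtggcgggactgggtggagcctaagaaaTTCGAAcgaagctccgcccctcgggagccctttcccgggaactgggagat
Ube2c (chr2:164769819-164769948, + strand): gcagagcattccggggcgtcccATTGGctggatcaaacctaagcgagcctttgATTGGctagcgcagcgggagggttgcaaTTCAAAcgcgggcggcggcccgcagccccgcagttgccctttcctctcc
Cdk1 (chr10:69352893-69353022, - strand): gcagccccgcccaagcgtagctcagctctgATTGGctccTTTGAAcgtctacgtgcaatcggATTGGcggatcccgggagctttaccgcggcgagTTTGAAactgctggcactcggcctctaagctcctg
Top2a (chr11:99024170-99024299, - strand): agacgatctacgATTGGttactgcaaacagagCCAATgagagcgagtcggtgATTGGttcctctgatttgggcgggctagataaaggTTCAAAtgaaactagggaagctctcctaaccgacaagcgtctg
Kif22 (chr7:127042401-127042530, - strand): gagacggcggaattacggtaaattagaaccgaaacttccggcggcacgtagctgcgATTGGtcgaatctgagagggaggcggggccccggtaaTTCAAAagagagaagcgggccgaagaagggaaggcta
Bub3 (chr7:131560260-131560389, + strand): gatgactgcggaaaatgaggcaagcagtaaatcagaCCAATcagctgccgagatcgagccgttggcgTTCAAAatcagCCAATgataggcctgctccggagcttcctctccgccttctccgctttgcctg
Cdc25b (chr2:131186838-131186967, + strand): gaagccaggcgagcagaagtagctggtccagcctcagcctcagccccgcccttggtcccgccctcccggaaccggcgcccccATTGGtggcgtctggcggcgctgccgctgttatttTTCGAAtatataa

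The number, order and spacing of the matches differ between these genes. In Top2a CCAAT letters begin at -98, -78 and -58 and CHR letters at -23, and in Cdk1 CCAAT letters begin at -80 and -48 with CHR letters at -71 and -15. Bub3, whose level was nearly even, has CCAAT letters at -74 and -32 around CHR letters at -43, and Cdc25b has CCAAT letters at -28 and CHR letters after the start, at 8. Over the 35 measured members with a CHR match DeltaKlf6 2 stood at a median of 1.12 above the wildtype mean, and over the 13 with a window but no match at 1.03. With a CCAAT match the median was 1.2 (35 members) and without it 0.52 (13 members). These are descriptions of letters in a fixed window. Windows of the other mitotic genes described further on held CHR letters in 44 of 109 cases (40.4%) and those of DNA replication genes in 6 of 28 (21.4%).

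**Figure D1:**
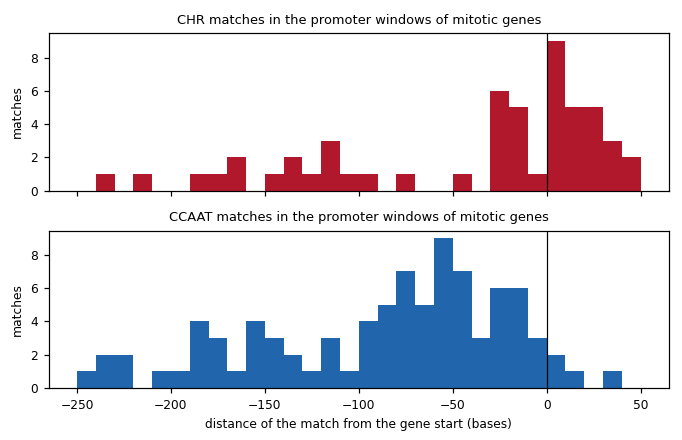
Number of CHR (upper panel) and CCAAT (lower panel) matches, in bins of 10 bases, by the distance in bases of the match's first base from the gene start (vertical line at 0), over the 57 promoter windows of the mitotic genes. The 53 CHR matches gather near the start, 37 of them within 50 bases, and the 88 CCAAT matches lie mostly upstream.

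As a set, mitotic genes were higher in the libraries labelled DeltaKlf6, and this came mainly from DeltaKlf6 2. By group mean 47 of 57 members were higher and 10 lower (82.5% higher, against 48.4% of all genes), with a median log2 difference of 0.30 against -0.01 over all genes. In DeltaKlf6 2 the median member stood 1.03 above the wildtype mean, 50 members were above it and 30 were above it by more than 1 (3.64% of all genes were). DeltaKlf6 2 was the highest of the 6 arrays for 43 of 57 members (75.4%), against 18.3% of all genes. In DeltaKlf6 1 and 3 the median member stood at 0.04 and 0.03, and 31 and 30 members were above the wildtype mean. Against the range of the 3 wildtype arrays, DeltaKlf6 2 lay above it for 44 members (28.0% of all genes) and below it for 4 (27.6%). DeltaKlf6 1 lay above it for 12 members (29.0%) and below it for 14 (30.9%), and DeltaKlf6 3 above it for 18 (27.2%) and below it for 15 (35.1%). For DeltaKlf6 1 both shares of members (21.1% and 24.6%) were under those of all genes, and for DeltaKlf6 3 they were 31.6% and 26.3%. Without DeltaKlf6 2 the median difference was 0.10, with 33 members higher (47.2% of all genes) and 24 lower. Without DeltaKlf6 1 it was 0.54, with 50 higher (47.7% of all genes), and without DeltaKlf6 3 it was 0.49, with 49 higher (48.3%).

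No member passed the test. In limma, with Benjamini-Hochberg adjustment over all genes, 0 of 57 members and 0 of 17097 genes (0.00%) had an adjusted p under 0.05, and the members' adjusted p lay between 0.992 and 0.998. At an unadjusted p under 0.05 stood 4 members, all higher (7.02%, against 1.21% of all genes higher at that level), and 0 lower (2.48% of all genes). The groups did not overlap for 4 members with DeltaKlf6 higher (3.41% of all genes) and 1 with DeltaKlf6 lower (5.91%). All 3 libraries labelled DeltaKlf6 lay above the wildtype mean for 18 members (31.6%, against 12.3% of all genes) and below it for 1 (17.7%). Without DeltaKlf6 1, 9 members were higher at an unadjusted p under 0.05 (1.51% of all genes) and 0 lower (2.58%), and without DeltaKlf6 3, 10 were higher (5.35%) and 2 lower (3.69%), again with 0 past the adjusted threshold. The members were chosen with earlier results of these data in view, and their counts are a description.

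**Figure D2:**
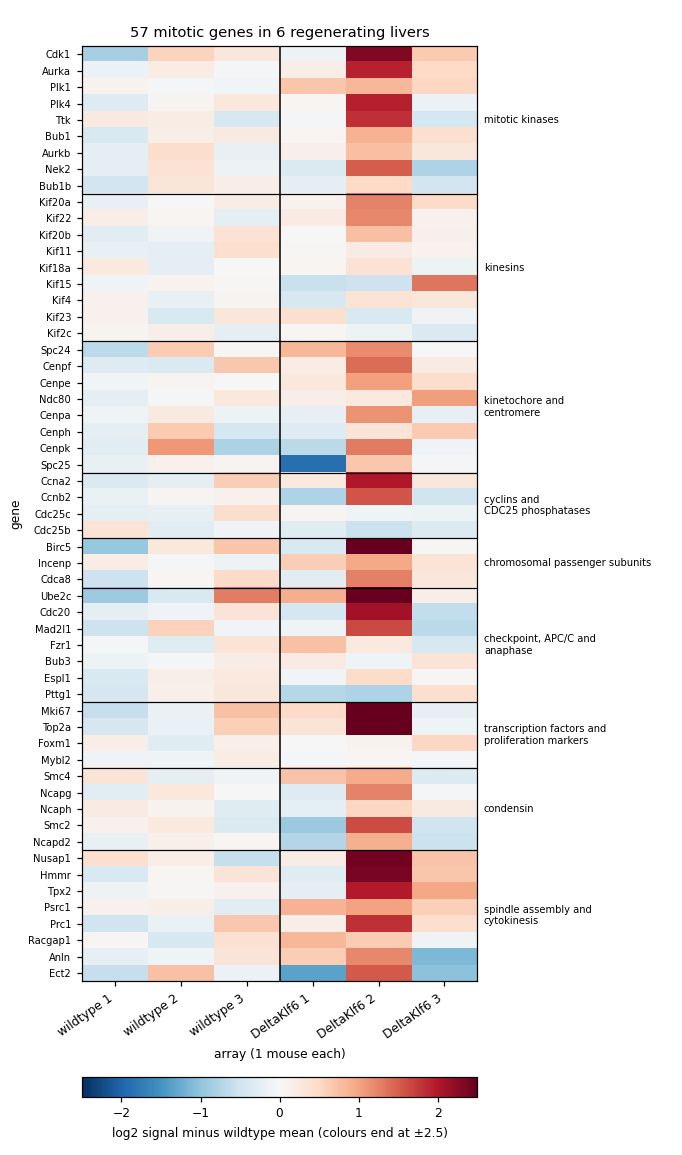
Log2 signal of each of the 57 mitotic genes (rows, in 9 groups by role) minus its mean over the 3 wildtype arrays, for each of the 6 arrays (columns); red is higher, blue is lower, and colours end at 2.5 in either direction. The column of DeltaKlf6 2 is red for 50 of 57 genes, while DeltaKlf6 1 and 3 show both colours.

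The genes that were higher in every library labelled DeltaKlf6 are described next, with values in the order of the replicate numbers 1, 2 and 3. Psrc1 encodes a spindle protein that promotes microtubule growth; it was at 3.75, 3.81 and 3.39 in wildtype and at 4.52, 4.66 and 4.24 in DeltaKlf6. All 3 DeltaKlf6 values lay above all wildtype values, and the group means were 3.65 ± 0.22 and 4.47 ± 0.21 (mean ± SD, n = 3 each). The difference was 0.82 (SE 0.23, a factor of 1.77), and 0.73 (SE 0.26) without DeltaKlf6 2. The other Psrc1 probe sets, of lower signal, differed by 0.49 (SE 0.24) and 0.00 (SE 0.22), so the size rests on the probe set read.

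Plk1, the polo-like kinase that drives mitotic entry, centrosome maturation and spindle assembly, was at 2.93, 2.80 and 2.77 in wildtype and at 3.53, 3.65 and 3.34 in DeltaKlf6. The groups did not overlap, the difference was 0.68 (SE 0.20, a factor of 1.60), and without DeltaKlf6 2 it was 0.60 (SE 0.23). Its wildtype mean of 2.83 lay under every array median, so the wildtype values may be background. Plk1 and Psrc1 were also the members that had an unadjusted limma p under 0.05 and a higher mean both with and without DeltaKlf6 2.

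Incenp, the scaffold of the chromosomal passenger complex, was at 3.69, 3.44 and 3.37 in wildtype and at 4.12, 4.44 and 3.83 in DeltaKlf6. The groups did not overlap and differed by 0.63 (SE 0.24), or by 0.48 (SE 0.25) without DeltaKlf6 2. Its other probe sets differed by -0.03 (SE 0.21) and -0.13 (SE 0.21), so the sign was not shared. Cenpe, a kinesin motor at the kinetochore that carries chromosomes to the spindle equator, was at 3.42, 3.56 and 3.50 in wildtype and at 3.76, 4.52 and 3.93 in DeltaKlf6. Every DeltaKlf6 value was above the highest wildtype value, and DeltaKlf6 2 was highest. The difference was 0.58 (SE 0.25), and 0.36 (SE 0.23) without DeltaKlf6 2. The other Cenpe probe set, of lower signal, differed by 0.37 (SE 0.28), with overlapping groups.

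**Figure D3:**
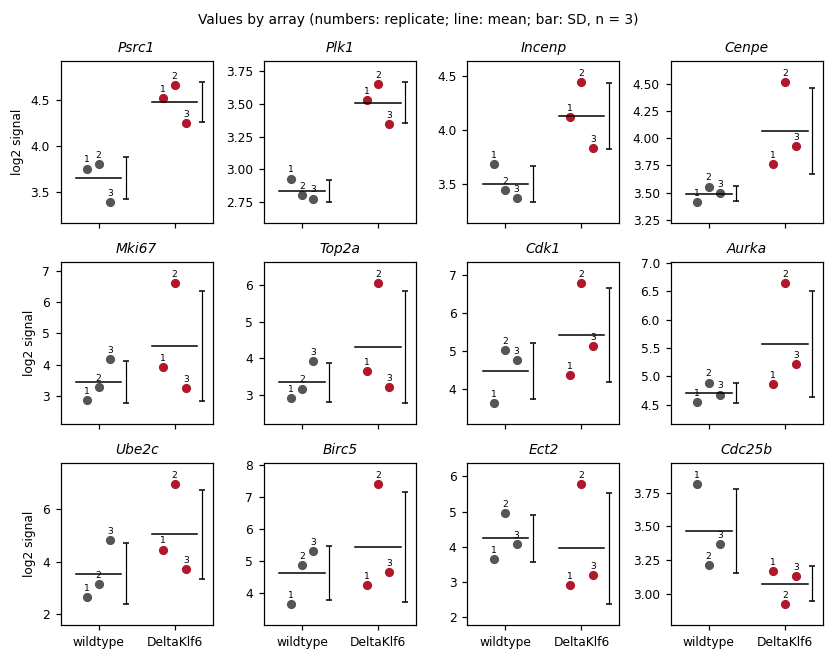
Log2 signal by array for 12 mitotic genes in wildtype (grey) and DeltaKlf6 (red); small numbers give the replicate, lines the group means and bars the SD (n = 3). Psrc1, Plk1, Incenp and Cenpe separate the groups upward and Cdc25b downward, whereas Mki67, Top2a, Cdk1, Aurka, Ube2c and Birc5 are set apart by DeltaKlf6 2, and Ect2 has DeltaKlf6 2 above and DeltaKlf6 1 and 3 below the wildtype values.

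Among the mitotic kinases 8 of 9 were higher by group mean, with a median difference of 0.45. On the probe sets read, all 9 were highest in DeltaKlf6 2. The median kinase there stood 1.52 above the wildtype mean, against 0.04 in DeltaKlf6 1 and 0.28 in DeltaKlf6 3. Without DeltaKlf6 2 the median difference was 0.21 and 5 of 9 were higher. Cdk1, the cyclin-dependent kinase of mitotic entry, was at 3.65, 5.03 and 4.77 in wildtype and at 4.36, 6.79 and 5.14 in DeltaKlf6. Its DeltaKlf6 1 value lay within the wildtype range and DeltaKlf6 2 stood 2.31 above the wildtype mean. The difference was 0.95 (SE 0.62), and 0.27 (SE 0.46) without that library.

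Aurka, the kinase of centrosomes and spindle poles, was at 4.55, 4.89 and 4.68 in wildtype and at 4.87, 6.64 and 5.21 in DeltaKlf6. DeltaKlf6 2 and 3 lay above the wildtype range and DeltaKlf6 1 just inside it. The difference was 0.87 (SE 0.43), and 0.33 (SE 0.25) without DeltaKlf6 2. Bub1, a checkpoint kinase at the kinetochore, was at 2.16, 2.70 and 2.77 in wildtype and at 2.60, 3.42 and 2.95 in DeltaKlf6, a difference of 0.44 (SE 0.29) within overlapping groups. A dimmer Bub1 probe set differed by -0.01 (SE 0.20). Aurkb, the kinase of the chromosomal passenger complex, differed by 0.39 (SE 0.28).

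In the remaining kinases DeltaKlf6 2 was high and the other libraries labelled DeltaKlf6 were not. Plk4, the kinase of centriole duplication, stood 1.95 above the wildtype mean in DeltaKlf6 2 and differed by -0.05 (SE 0.27) without it. A dimmer Plk4 probe set differed by -0.10 (SE 0.21) with all arrays. Ttk, the checkpoint kinase also called MPS1, stood 1.82 above the wildtype mean in DeltaKlf6 2 and differed by -0.24 (SE 0.30) without that library. Nek2, a kinase of centrosome separation, was at 4.42, 5.01 and 4.53 in wildtype and at 4.29, 6.18 and 3.88 in DeltaKlf6, so DeltaKlf6 1 and 3 lay below and DeltaKlf6 2 above the wildtype range. Bub1b, the checkpoint protein BUBR1, was the kinase with a lower group mean on the probe set read (-0.08, SE 0.33). A Bub1b probe set of nearly the same signal (mean 3.295 against 3.299) differed by 0.40 (SE 0.36). A dimmer one differed by 0.13 (SE 0.19), so the sign was not shared.

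Cenpe, a kinesin motor too, is counted with the kinetochore genes (difference 0.58, SE 0.25). The other kinesins of the set, motor proteins of the spindle, differed little as a group. By group mean 7 of 9 were higher, with a median of 0.09, and the values of 7 of 9 averaged under the overall array median. DeltaKlf6 2 was highest for 5 of 9 and stood at a median of 0.34, against 1.52 for the kinases and 1.07 for the kinetochore genes; these differences between groups of genes were not tested. Kif20a, needed for cytokinesis, was at 2.80, 2.98 and 3.16 in wildtype and at 3.07, 4.22 and 3.47 in DeltaKlf6, a difference of 0.60 (SE 0.31). Kif22, a motor that binds chromosome arms, was at 3.29, 3.15 and 2.90 in wildtype and at 3.32, 4.31 and 3.22 in DeltaKlf6, a difference of 0.50 (SE 0.32). Kif20b was at 2.77, 2.96 and 3.41 in wildtype and at 3.07, 3.80 and 3.17 in DeltaKlf6, a difference of 0.30 (SE 0.28).

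For these 3 motors DeltaKlf6 2 was the highest array and the groups overlapped on the probe sets read. Without DeltaKlf6 2 the differences were 0.29, 0.15 and 0.07. On the dimmer Kif22 and Kif20b probe sets DeltaKlf6 3 was highest, with differences of 0.35 (SE 0.20) and 0.13 (SE 0.21). On that of Kif22 the groups did not overlap. The other 6 kinesins differed by -0.14 to 0.11: Kif2c, a microtubule depolymerase, by -0.14, Kif23, a subunit of centralspindlin, by -0.02, and Kif11, the motor that separates spindle poles, by 0.11. Kif15, a motor that works beside Kif11, was at 3.57, 3.76 and 3.71 in wildtype and at 3.12, 3.16 and 5.03 in DeltaKlf6. Here DeltaKlf6 3 was high and DeltaKlf6 1 and 2 lay below the wildtype range.

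Kinetochore and centromere genes were higher by group mean in 7 of 8 measured cases, with a median of 0.36, or 0.18 without DeltaKlf6 2. In DeltaKlf6 2 all 8 were above their wildtype mean. Spc24, a subunit of the NDC80 complex that grips microtubules, was at 4.76, 6.05 and 5.45 in wildtype and at 6.26, 6.59 and 5.42 in DeltaKlf6, a difference of 0.67 (SE 0.41). DeltaKlf6 1 and 2 lay above the wildtype range and DeltaKlf6 3 within it. Its partner Spc25 was at 7.83, 8.12 and 8.09 in wildtype and at 6.13, 8.69 and 7.95 in DeltaKlf6, so that DeltaKlf6 1 was low for this subunit. Spc25 was the kinetochore member with the lower group mean (-0.42, SE 0.57).

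Ndc80, the subunit that names the complex, was at 2.40, 2.57 and 2.90 in wildtype and at 2.79, 2.88 and 3.66 in DeltaKlf6, a difference of 0.49 (SE 0.29) with DeltaKlf6 3 highest. Cenpf, a large kinetochore protein of G2 and mitosis, differed by 0.60 (SE 0.42), and by 0.20 (SE 0.36) without DeltaKlf6 2. Its dimmer probe sets differed by 0.05 (SE 0.24) and -0.33 (SE 0.20), so the sign was not shared. Cenpa, the histone variant that marks centromeres, was at 5.64, 5.96 and 5.61 in wildtype and at 5.53, 6.86 and 5.53 in DeltaKlf6, again with DeltaKlf6 2 above and the other libraries slightly below the wildtype range. Cenph and Cenpk, subunits of the inner kinetochore, differed by 0.22 (SE 0.37) and 0.18 (SE 0.60). Cenpk was high in wildtype 2 too, at 6.44 beside 6.66 in DeltaKlf6 2, with the other arrays between 4.57 and 5.27.

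**Figure D4:**
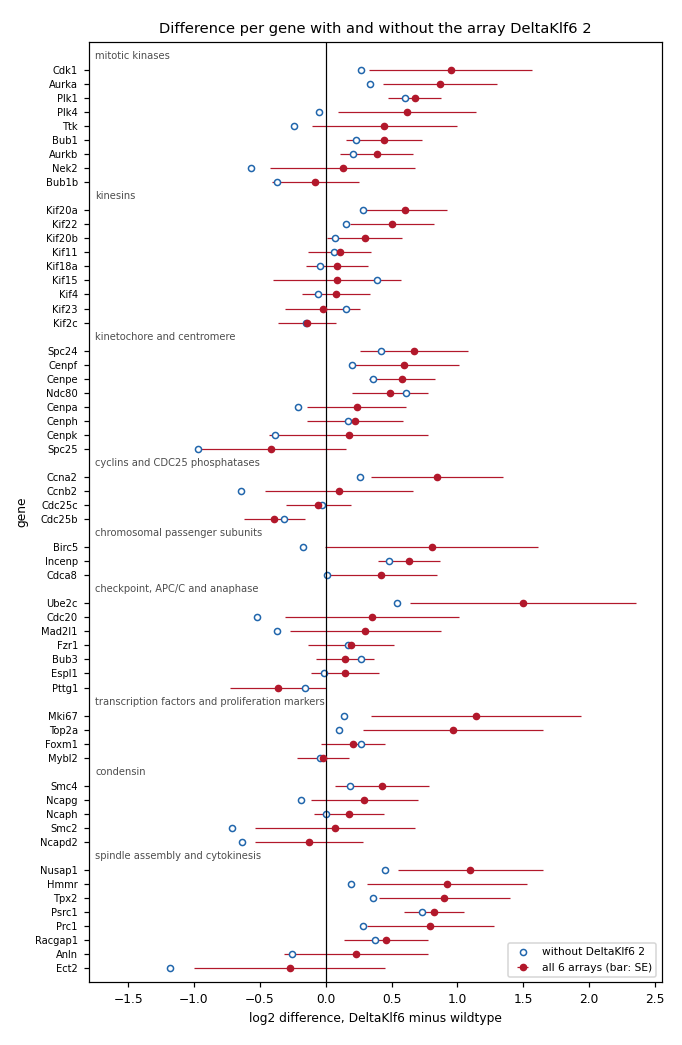
Log2 difference, DeltaKlf6 minus wildtype, for each of the 57 genes by role: filled red points use all 6 arrays with the standard error as a bar, and open blue points leave out DeltaKlf6 2. For most genes the blue point lies left of the red one; the median goes from 0.30 to 0.10.

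Cyclins and CDC25 phosphatases turn CDK1 on. Ccna2, cyclin A2 of S and G2 phase, was at 4.0, 4.12 and 4.97 in wildtype and at 4.60, 6.37 and 4.65 in DeltaKlf6, a difference of 0.84 (SE 0.50), or 0.26 (SE 0.34) without DeltaKlf6 2. Ccnb2, cyclin B2, stood 1.58 above the wildtype mean in DeltaKlf6 2, and without that library it differed by -0.64 (SE 0.24). Its sign therefore depended on DeltaKlf6 2. Cdc25b, a phosphatase that activates CDK1, was the member with lower, non-overlapping values: 3.81, 3.21 and 3.37 in wildtype and 3.17, 2.92 and 3.13 in DeltaKlf6. The difference was -0.39 (SE 0.23), and -0.31 (SE 0.27) without DeltaKlf6 2. Cdc25c, a related phosphatase, was at 2.86, 2.88 and 3.53 in wildtype and at 3.15, 2.98 and 2.97 in DeltaKlf6 (-0.06, SE 0.25), and at 0.17 without wildtype 3.

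The passenger complex genes were highest in DeltaKlf6 2 in all 3 cases. Birc5, survivin, was at 3.67, 4.89 and 5.32 in wildtype and at 4.25, 7.40 and 4.66 in DeltaKlf6. DeltaKlf6 1 and 3 lay within the wildtype range; the difference of 0.81 (SE 0.81) became -0.18 (SE 0.48) without DeltaKlf6 2. Cdca8, borealin, was at 3.82, 4.39 and 4.81 in wildtype and at 4.07, 5.59 and 4.62 in DeltaKlf6, and its difference of 0.42 (SE 0.42) became 0.01 (SE 0.35).

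Genes of the spindle checkpoint and of the anaphase-promoting complex (APC/C), the ubiquitin ligase of mitotic exit, were higher by group mean in 6 of 7 cases, with a median of 0.19 that was -0.02 without DeltaKlf6 2. Ube2c, the ubiquitin-conjugating enzyme of the APC/C, was at 2.65, 3.17 and 4.84 in wildtype and at 4.47, 6.95 and 3.73 in DeltaKlf6. This gene had the highest difference of the members, 1.49 (SE 0.86, a factor of 2.82), and DeltaKlf6 2 stood 3.40 above the wildtype mean, yet DeltaKlf6 1 and 3 lay within the wildtype range. Without DeltaKlf6 2 the difference was 0.54 (SE 0.62). Cdc20, the activator of the APC/C at anaphase, stood 2.09 above the wildtype mean in DeltaKlf6 2 and differed by -0.52 (SE 0.27) without it. Mad2l1, the checkpoint protein MAD2, stood 1.65 above and differed by -0.37 (SE 0.37) without it.

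For the other genes of this group the groups overlapped. Bub3, a checkpoint protein, was at 8.94, 9.01 and 9.24 in wildtype and at 9.26, 8.96 and 9.40 in DeltaKlf6, a difference of 0.15 (SE 0.22). Pttg1, securin, was at 10.51, 11.06 and 11.22 in wildtype and at 10.21, 10.16 and 11.34 in DeltaKlf6 (-0.36, SE 0.36), while its other probe sets differed by -0.41 (SE 0.30) and 0.84 (SE 0.48). The probe sets of Pttg1 thus had no common sign, and their mean differed by 0.02. Fzr1, the APC/C activator CDH1, and Espl1, separase, differed by 0.19 (SE 0.33) and 0.14 (SE 0.26).

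The proliferation markers were high in DeltaKlf6 2. Mki67, encoding the Ki-67 antigen, was at 2.88, 3.30 and 4.18 in wildtype and at 3.93, 6.60 and 3.26 in DeltaKlf6. Top2a, the topoisomerase that untangles sister chromatids, was at 2.92, 3.17 and 3.93 in wildtype and at 3.65, 6.04 and 3.22 in DeltaKlf6. In both, DeltaKlf6 1 and 3 lay within the wildtype range and DeltaKlf6 2 stood 3.14 and 2.70 above the wildtype mean. The differences of 1.14 (SE 0.80) and 0.97 (SE 0.69) became 0.14 (SE 0.42) and 0.10 (SE 0.35) without it.

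The transcription factors of the mitotic wave were near their wildtype mean in DeltaKlf6 2 on the probe sets read. Foxm1 was at 3.44, 2.96 and 3.40 in wildtype and at 3.28, 3.35 and 3.79 in DeltaKlf6, a difference of 0.21 (SE 0.24), with DeltaKlf6 3 highest. DeltaKlf6 2 stood 0.09 above the wildtype mean on this probe set, and on another Foxm1 probe set it was the highest array at 3.71. Mybl2, encoding B-MYB, spanned 2.68 to 2.96 over all 6 arrays (difference -0.02, SE 0.20), under the array medians.

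Condensin subunits, which compact chromosomes, were highest in DeltaKlf6 2 in 5 of 5 cases on the probe sets read, with a median there of 0.92. In DeltaKlf6 1 and 3 the medians were -0.33 and -0.35. Smc4 was at 7.12, 6.57 and 6.71 in wildtype and at 7.51, 7.72 and 6.45 in DeltaKlf6, a difference of 0.43 (SE 0.36). On a dimmer Smc4 probe set the groups did not overlap and differed by 0.68 (SE 0.19). On another the difference was -0.10 (SE 0.26), so the sign was not shared. Ncapg was at 2.47, 2.99 and 2.73 in wildtype and at 2.40, 3.98 and 2.69 in DeltaKlf6 (0.29, SE 0.41). The sign turned without DeltaKlf6 2 (-0.19). It also turned after a further quantile normalization (-0.12), where the probe set was chosen anew. Another Ncapg probe set of nearly the same signal (mean 2.874 against 2.875) differed by -0.11 (SE 0.22), with DeltaKlf6 2 the lowest array. Ncaph was at 3.83, 3.72 and 3.33 in wildtype and at 3.40, 4.15 and 3.86 in DeltaKlf6, a difference of 0.17 (SE 0.27).

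Smc2 and Ncapd2 split the libraries labelled DeltaKlf6. Smc2 was at 5.11, 5.24 and 4.63 in wildtype and at 4.06, 6.63 and 4.50 in DeltaKlf6. Without DeltaKlf6 2 it differed by -0.71 (SE 0.29). On its dimmer probe sets DeltaKlf6 2 was not the highest array, and the differences were -0.20 (SE 0.26), -0.18 (SE 0.35) and 0.32 (SE 0.22). Ncapd2 differed by -0.13 (SE 0.41), and by -0.63 (SE 0.24) without that library. The same split, DeltaKlf6 2 above the wildtype range and DeltaKlf6 1 and 3 below it, held for 7 members (12.3%, against 3.39% of all genes): Nek2, Cenpa, Ccnb2, Cdc20, Smc2, Ncapd2 and Ect2. The dimmer probe sets of Nek2, Cenpa and Smc2 did not share this split. Without DeltaKlf6 2, 4 members were lower at an unadjusted limma p under 0.05 (Ect2, Ccnb2, Ncapd2 and Smc2; 7.02%, against 5.04% of all genes) and 2 were higher (Psrc1 and Plk1; 3.51%, against 1.78%). With adjustment 0 of 57 passed there too (0.00% of all genes).

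Spindle assembly and cytokinesis genes had a median difference of 0.81, the highest of the 9 role groups, with 7 of 8 higher; without DeltaKlf6 2 it was 0.32. Nusap1, which bundles spindle microtubules, was at 3.78, 3.56 and 2.81 in wildtype and at 3.56, 5.78 and 4.10 in DeltaKlf6, a difference of 1.10 (SE 0.55). Tpx2, the activator of Aurora A, was at 2.65, 2.80 and 2.89 in wildtype and at 2.54, 4.76 and 3.74 in DeltaKlf6, a difference of 0.90 (SE 0.50). In both, DeltaKlf6 2 and 3 lay above the wildtype range and DeltaKlf6 1 did not. The dimmer probe sets of Nusap1 and Tpx2 did not share this placing and differed by 0.30 (SE 0.29) and 0.20 (SE 0.28). Hmmr, a spindle and hyaluronan-binding protein, and Prc1, which bundles the central spindle, stood 2.38 and 1.82 above the wildtype mean in DeltaKlf6 2. Hmmr differed by 0.92 (SE 0.61) on the probe set read and by -0.06 to 0.22 on its dimmer ones.

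Ect2, the exchange factor that activates RhoA for cytokinesis, was at 3.66, 4.96 and 4.09 in wildtype and at 2.91, 5.78 and 3.21 in DeltaKlf6. Its group difference of -0.27 (SE 0.73) hides values on both sides of wildtype, and without DeltaKlf6 2 it was -1.18 (SE 0.40). Its partner Racgap1, the GAP of centralspindlin, differed by 0.46 (SE 0.32) with DeltaKlf6 1 highest at 3.77. Anln, anillin of the contractile ring, was at 3.69, 3.77 and 4.21 in wildtype and at 4.51, 5.09 and 2.76 in DeltaKlf6, so DeltaKlf6 3 was low.

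Several members have more than 1 probe set, which gives a second reading of the same RNA. Of 33 such members all probe sets were higher for 18, all were lower for 1 and signs were mixed for 14. Among the 51 probe sets not chosen, 35 were higher by group mean, DeltaKlf6 2 was the highest array for 21, and the median difference was 0.13. They are dimmer by the rule of choice. Of the 57 chosen probe sets 20 are of types that can match several transcripts.

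Mitotic genes outside the set were compared next. This list holds 113 further genes of mitosis, among them cohesin, most APC/C subunits, the constitutive centromere network and regulators such as Wee1. Of 106 measured 67 were higher and 39 lower (63.2% higher), with a median of 0.10, and 0 had an adjusted limma p under 0.05. DeltaKlf6 2 was the highest array for 49 (46.2%), with a median of 0.37 above the wildtype mean. Other checkpoint and APC/C genes had a median difference of -0.09 (6 of 15 higher), cohesin genes 0.04 (7 of 11) and other spindle and cytokinesis genes 0.40 (19 of 23).

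At an unadjusted p under 0.05 stood 3 genes of the list with higher values (2.83%, against 1.21% of all genes) and 1 with lower (0.943%, against 2.48%). The groups did not overlap for 8 with DeltaKlf6 higher (7.55%, against 3.41%) and 2 with DeltaKlf6 lower (1.89%, against 5.91%). Within that list 3 genes had groups that did not overlap together with an unadjusted limma p under 0.05. Gtse1, a microtubule-binding protein of G2, was at 3.04, 3.19 and 2.73 in wildtype and at 3.96, 3.71 and 3.54 in DeltaKlf6 (0.75, SE 0.23). Troap, a spindle-associated protein, was at 2.91, 2.89 and 2.75 in wildtype and at 3.61, 3.19 and 3.40 in DeltaKlf6 (0.55, SE 0.21). In these genes DeltaKlf6 1, not DeltaKlf6 2, was the highest array. Gtse1 and Troap averaged 3.361 and 3.125 over the 6 arrays, under the overall median of 3.364, and their values may lie near background. Of the 106 measured genes of the list 23 averaged under that median. Ppp2r2d, a regulatory subunit of the phosphatase PP2A that opposes mitotic entry, was at 9.35, 8.98 and 9.44 in wildtype and at 8.81, 8.41 and 8.59 in DeltaKlf6 (-0.65, SE 0.23).

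DNA replication genes, which act just before mitosis in the cycle, were compared as the nearest set. Of 29 measured 25 were higher, with a median of 0.47, and 28 were highest in DeltaKlf6 2, where the median stood 1.52 above the wildtype mean. Without DeltaKlf6 2 the median was -0.11. Wildtype 2 was also high for replication genes, at a median of 0.66, with 28 of 29 above the wildtype mean. For mitotic members wildtype 2 stood at 0.05 (32 of 57 above the mean), so wildtype 2 was high for replication genes and not for the mitotic set.

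**Figure D5:**
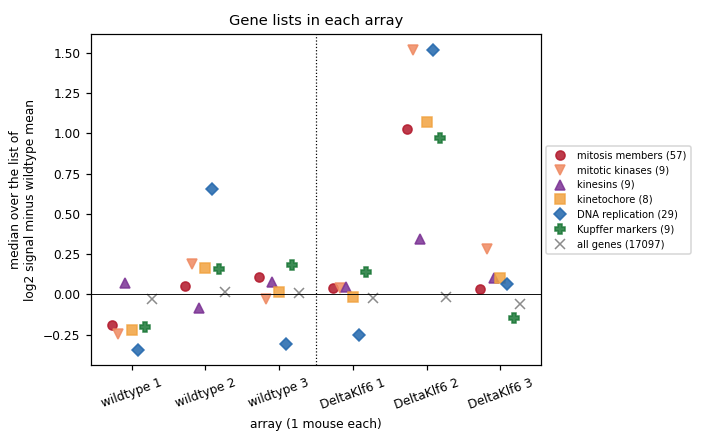
Median over each gene list of the log2 signal minus the wildtype mean, for each of the 6 arrays (points spread sideways for legibility; numbers in the key are genes). In DeltaKlf6 2 the mitotic members (1.03), kinases (1.52), kinetochore genes (1.07), replication genes (1.52) and Kupffer cell markers (0.97) stand up, the kinesins less so (0.34), and all genes stay near 0.

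Markers of other cells moved in the same library. Of 9 Kupffer cell and macrophage markers 8 were highest in DeltaKlf6 2, and their summed linear signal was 2308 there, against 1098 to 1490 in wildtype, 1543 in DeltaKlf6 1 and 1557 in DeltaKlf6 3. Stellate cell and fibroblast markers summed to 939 in DeltaKlf6 2, against 548 to 769 in wildtype, 757 in DeltaKlf6 1 and 451 in DeltaKlf6 3. Erythroid markers summed to 3593, against 2098 to 2590 in wildtype, and to 3663 and 2607 in DeltaKlf6 1 and 3. Lymphocyte markers summed to 178 (164 to 181 in wildtype, 154 and 159 in DeltaKlf6 1 and 3) and hepatocyte markers to 62190 (56430 to 58300 in wildtype, 62880 and 54380). Neutrophil markers summed to 233 (251 to 524 in wildtype, 370 and 522), endothelial markers to 1211 (1201 to 1310, then 1099 and 1197) and cholangiocyte markers to 37.3 (32.3 to 52.9, then 53.3 and 40.6).

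Of the 7 measured hepatocyte markers 0 averaged under the array median, as the tissue label would have it, and 0 of the 8 marker lists had a member past the adjusted limma threshold. Dividing cells of which type carried the mitotic RNA was not tested, and in whole tissue more cells of a type and more RNA per cell cannot be told apart. The 3'-minus-5' signal of the Gapdh control was 3.45 in DeltaKlf6 2 and 3.47 in DeltaKlf6 1, against 4.06 to 4.43 in wildtype and 4.83 in DeltaKlf6 3. For actin it was 4.0 and 4.22 against 4.86 to 5.39, and 5.05 in DeltaKlf6 3. The part of cell makeup and RNA quality in the level of DeltaKlf6 2 was not tested.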

How the data were processed

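The submitters' processing notes name RMA and Affymetrix Expression Console 1.2.1 as the tools behind the deposited values, which were used as log2 because no value exceeds 13.95. RMA corrects background, quantile-normalizes probe signals and summarises them per probe set; the deposited values still differ between arrays in their upper quartile (5.08 to 5.63). The sources used here name no genome build. Of 45141 probe sets 28898 carried 1 gene in the platform annotation, 551 several and 15692 none here; 28689 matched RefSeq by Entrez number, with 0 symbols changed.

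DeltaKlf6 was compared with wildtype over 17097 genes with limma 3.58.1 in R 4.3.3 (lmFit, eBayes, two-sided, Benjamini-Hochberg over all genes, threshold 0.05). The members, roles and other lists were chosen with earlier results of these data known. Values in every array were given for members with non-overlapping groups, an unadjusted p under 0.05 or among the 3 smallest p of their role group, and for Mki67, Top2a, Cdk1 and Foxm1 (Ccnb1, also on that list, was not measured). Other mitotic genes were named where groups did not overlap and the unadjusted p was under 0.05. Other members with values in every array or in 1 library were chosen after their values were seen. The precision is limited by the number of arrays. In simulated data with 17097 genes, 16% of 50 genes changed by 1 were recovered for this comparison, as were 62% of those changed by 2, 96% by 3 and 90% by 4 (log2), with 5 unchanged genes called. The simulated noise was independent between genes and had the same SD in both groups. In the data many members were high together in DeltaKlf6 2, so these rates may not hold for them. Alternatives covered probe set choice, dim genes, normalization, variance model, array weights, a replicate block and each array left out. Whether the replicate numbers pair the arrays is not known. Deviations of same-numbered arrays correlated at -0.005, 0.262 and 0.084, and those of differently numbered arrays at -0.174 to 0.086.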

Additional observations from a re-analysis of the deposited data

How the results depend on the processing

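In every alternative run, 0 genes and 0 members passed the adjusted threshold in limma, where 379 to 1546 genes had an unadjusted p under 0.05 (631 in the reported fit). The members' median difference was 0.22 to 0.43 under other processing and 0.10 to 0.54 with an array left out, lowest without DeltaKlf6 2; that of the kinases was 0.21 to 0.76 and of the kinetochore genes 0.18 to 0.59 with an array left out. The kinesin median was 0.30 with dim genes left out, where 2 kinesins remain, and -0.0074 (without wildtype 2) to 0.31 (without DeltaKlf6 1) with an array left out. Members at an unadjusted p under 0.05 numbered 2 with dim genes left out (35 members tested), 2 with probe sets averaged by gene, 2 with a variance trend, and 2 to 12 with an array left out (2 without wildtype 2, 9 without DeltaKlf6 1, 12 without DeltaKlf6 3). With the mean of probe sets Psrc1 differed by 0.44 and Incenp by 0.16. Whether the replicate numbers pair the arrays was not settled, and not every array correlated best with its own number. With the replicate number as a block, 703 genes (0 adjusted) and 5 members had an unadjusted limma p under 0.05. The members' median stayed at 0.30 there. The labels give the same numbers in both groups and state no pairing. Causes of these shifts were not tested. Among the 28 members chosen by rule, signs turned for Birc5 (-0.18) and Ncapg (-0.19) without DeltaKlf6 2, Cdc25c (0.17) without wildtype 3, Ncapg (-0.12) with arrays quantile-normalized again and Pttg1 (0.02) with probe sets averaged by gene. Probe sets were chosen anew after that normalization, and Ncapg has another of nearly the same signal and of lower group mean. Signal near background limits the 22 members under the array median.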
